A study of Homo sapiens with 4 samples.

Results

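The BEX genes (brain expressed X-linked) form a small family on the X chromosome, and BEX1, BEX2, BEX3, BEX4 and BEX5 were followed here as 5 of the 20501 genes that could be named on the array. Each was read by every probe whose accession is a RefSeq transcript of the gene, which gave 1 probe per gene with 1 spot per array. The family was chosen by the rise of BEX2 at 48 h on these same arrays, so the values of BEX2 at that time are a description and support nothing, and the question put to the other members was whether they rose too.

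RNA of MCF-10A cells, a line of normal human mammary epithelial cells, was hybridised to 4 single-colour Agilent arrays after treatment with a peptide at 10 µM. There was 1 array for each combination of peptide (stapled-peptide or non-specific stapled-peptide, as the labels name them) and time (24 h or 48 h), and all 4 cultures were grown in MEBM medium with its supplements and cholera toxin. The labels also mark the non-specific stapled-peptide samples as controls, and they leave unsaid which peptide of the stERAP series, made to block the BIG3-PHB2 interaction, each name stands for. Values are therefore given by label, and a peptide difference is always non-specific stapled-peptide minus stapled-peptide, on the log2 scale. With 1 array per condition there is no replicate error and no test of any difference was possible. The standard deviation of probe differences between the peptides at 24 h, 0.43 on the log2 scale, is given as a yardstick for the spread between arrays of near-identical profile. It covers the 33047 probes well above background on at least 1 of both arrays. Dim signals below the lowest well-above-background signal of their array were raised to it.

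BEX proteins are short and largely disordered adaptors that are abundant in brain and in endocrine cells. BEX3, also called NADE or NGFRAP1, binds the death domain of the neurotrophin receptor NGFR, to which BEX1 binds as well. BEX2 takes part in a DNA-binding complex with LMO2 and NHLH2, and BEX4 binds tubulin and the deacetylase SIRT2. BEX5 is the least studied member. On the X chromosome the genes stand among the related TCEAL genes (transcription elongation factor A like) and the ARMCX and GPRASP genes, which have been grouped with them as an old X-linked cluster.

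RefSeq (GRCh38.p14) gave a promoter window of 300 bases, 250 before and 50 after a transcription start, for all 5 genes, in 9 windows in all. Windows of different members could be paired in 31 ways. The most alike, counted in identical bases, were those of BEX2 and the second of BEX4, with 254 identical bases over 303 aligned columns (83.8%) and a shared run of 45 bases. The first window of BEX4, which overlaps the second, had 241 identical bases with BEX2 over 287 columns (84.0%). Of the other gene pairs, BEX1 and the second window of BEX3 shared the most, with 237 identical bases over 316 columns (75%), and the first window of BEX3 overlapped that of BEX1 over 94 columns at 88.3% identity. One window of each of these 4 genes is shown, as these are the gene pairs with the most alike windows. Capitals mark the letters CACGTG and ACGTGA, which overlap, with the latter searched on both strands.
BEX2 (chrX:103310941-103311240, minus strand): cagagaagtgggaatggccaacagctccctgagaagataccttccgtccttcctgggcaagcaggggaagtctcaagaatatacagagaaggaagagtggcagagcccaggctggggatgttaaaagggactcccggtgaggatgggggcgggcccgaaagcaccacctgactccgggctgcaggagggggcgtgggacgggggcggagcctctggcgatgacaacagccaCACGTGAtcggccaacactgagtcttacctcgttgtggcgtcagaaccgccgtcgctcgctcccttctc
BEX4 (chrX:103214858-103215157, plus strand): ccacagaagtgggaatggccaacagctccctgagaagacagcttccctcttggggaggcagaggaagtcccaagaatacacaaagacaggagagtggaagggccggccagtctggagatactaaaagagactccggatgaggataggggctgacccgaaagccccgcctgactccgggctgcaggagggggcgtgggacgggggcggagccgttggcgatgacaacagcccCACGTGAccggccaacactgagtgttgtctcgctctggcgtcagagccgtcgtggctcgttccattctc
BEX1 (chrX:103064122-103064421, minus strand): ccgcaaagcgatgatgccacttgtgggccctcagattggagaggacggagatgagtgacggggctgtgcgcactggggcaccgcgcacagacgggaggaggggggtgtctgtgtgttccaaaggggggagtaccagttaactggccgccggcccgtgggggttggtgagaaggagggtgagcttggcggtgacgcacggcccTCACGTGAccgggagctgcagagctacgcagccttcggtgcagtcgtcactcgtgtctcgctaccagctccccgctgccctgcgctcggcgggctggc
BEX3 (chrX:103376288-103376587, plus strand): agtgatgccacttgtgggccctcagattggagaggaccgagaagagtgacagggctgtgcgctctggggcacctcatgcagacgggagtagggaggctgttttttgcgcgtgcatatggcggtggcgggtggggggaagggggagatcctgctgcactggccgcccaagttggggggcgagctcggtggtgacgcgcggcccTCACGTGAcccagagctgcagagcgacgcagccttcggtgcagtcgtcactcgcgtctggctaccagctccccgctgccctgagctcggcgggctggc
In the printed windows of both BEX2 and BEX4 the CACGTG began 19 bases before the start. In those of both BEX1 and BEX3 it began 47 bases before it. Counted from the start of the first BEX4 window the distance was 3 bases, and the other windows of BEX3 held no CACGTG. These letters were chosen after the sequences had been read. CACGTG was held by 4 of 5 BEX genes in at least 1 window, the exception being BEX5, against 8.78% of all 27305 genes with a window. ACGTGA was held by 5 of 5, against 8.64%. The same letters were also frequent among the relatives, where 7 of 8 TCEAL genes and 6 of 9 ARMCX or GPRASP genes held CACGTG.

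Of the other letters searched, on both strands, TATAAA and TGACGTCA occurred in 0 of the 9 BEX windows, against 11.5% and 1.85% of all 35116 windows. GGGCGG stood in windows of 4 of 5 BEX genes (48.3% of all genes) and CCAAT in those of 3 of 5 (39.7%). The windows held between 7 and 32 CG dinucleotides, both extremes in BEX3, against a median of 14 over all windows. The 4 windows printed above held 17, 17, 25 and 23. A match is a description of the letters and not a binding site.

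The arrays themselves set limits on every value. Between 62.5 and 65.7% of spots were well above background, a mark that the scanner software sets where a signal clearly exceeds its local background, and no spot was saturated. All 4 arrays lay on 1 slide and were scanned in 1 run. The array labelled non-specific stapled-peptide 48 h stood apart: it correlated with the others at r = 0.838 to 0.844 across probes, whereas the other 3 arrays correlated with each other at 0.987 to 0.988. Markers of basal mammary epithelium, which the label MCF-10A would lead one to look for, were lower there. At 48 h, 10 of 10 were past 2-fold lower, against 19.8% of all genes, with a median difference of −7.14. Their summed signal was 133581, 138453 and 136335 on the other arrays and 767 on that one. All 10 were still well above background on each array, and none was at 0.

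**Figure D1:**
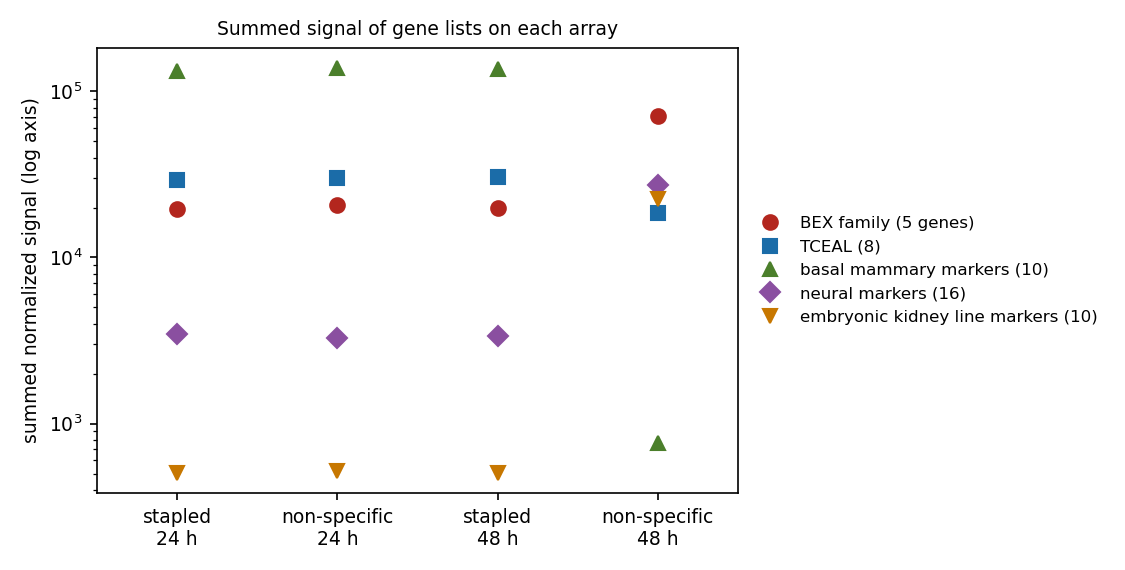
Summed normalized signal (log axis) of the BEX family, the TCEAL relatives and 3 marker lists on each of the 4 arrays, 1 point per list and array. The non-specific stapled-peptide 48 h array has the highest BEX, neural and embryonic kidney line sums and the lowest basal mammary sum, 767 against 133581 or more elsewhere.

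Both other marker lists were higher on the same array. Among 16 neural genes, 13 were well above background there against 4 or 5 on the other arrays, and the summed signal went from between 3256 and 3476 to 27390. Of the 13 with a difference at 48 h, 9 were past 2-fold higher and 2 lower, against 21.2% and 19.8% over all genes. The highest were UCHL1 (at least 10.36), NEFM (at least 8.05), NEFL (at least 7.26) and INA (at least 5.36). The 2 lower were MAP2 (−5.41) and TUBB3 (−4.05). Among 10 genes known from embryonic kidney lines, 5 of 9 with a difference were past 2-fold higher, against 21.2% over all genes. LIN28B (at least 8.98), IGF2BP1 (at least 7.79) and CKB (6.13) were among them, and the sum of the list went from between 504 and 521 to 22534. Of the other 4 with a difference, PAX8 (−0.95), L1CAM (−0.58, a bound) and PAX2 (−0.59, a bound, other probe 3.89) were below 0. None of these 4 values was past 2-fold, and PHOX2A was dim on both arrays. Whether this array holds RNA of the cells that its label names was not tested, which bears on each value at 48 h given for it, and the part of these changes in the BEX values was not tested either. In bulk RNA, a change in which cells were present and a change in RNA per cell cannot be told apart, and neither can be told apart from the peptide and time that this single array stands for.

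All 5 BEX genes had their highest signal on the non-specific stapled-peptide 48 h array. Against stapled-peptide at the same time, 5 of 5 were past 2-fold higher, from 2.06-fold for BEX3 to at least 1336-fold for BEX2, where 21.2% of the 17112 genes with a difference were past 2-fold higher and 19.8% past 2-fold lower. Without BEX2, by which the family was chosen, 4 of 4 were past 2-fold higher, with differences from 1.04 to 7.22 and a median of 4.46, against a median of 0.03 over all genes. Past 100-fold higher were 2 of 5, BEX1 and BEX2, where 0.24% of all genes were, and under the normexp background correction BEX1 was not, with 5.19. BEX1 and BEX4 were dim with stapled-peptide at 48 h. A gene dim there and bright on the other array gets a positive value or none, so the marks fixed their direction. BEX5 (3.05) and BEX3 (1.04) were measured on both arrays, and BEX3 was 0.82, under 2-fold, with scaling by the 75th percentile. The paralogs were thus higher as well on this 1 array, but far apart in size.

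**Figure D2:**
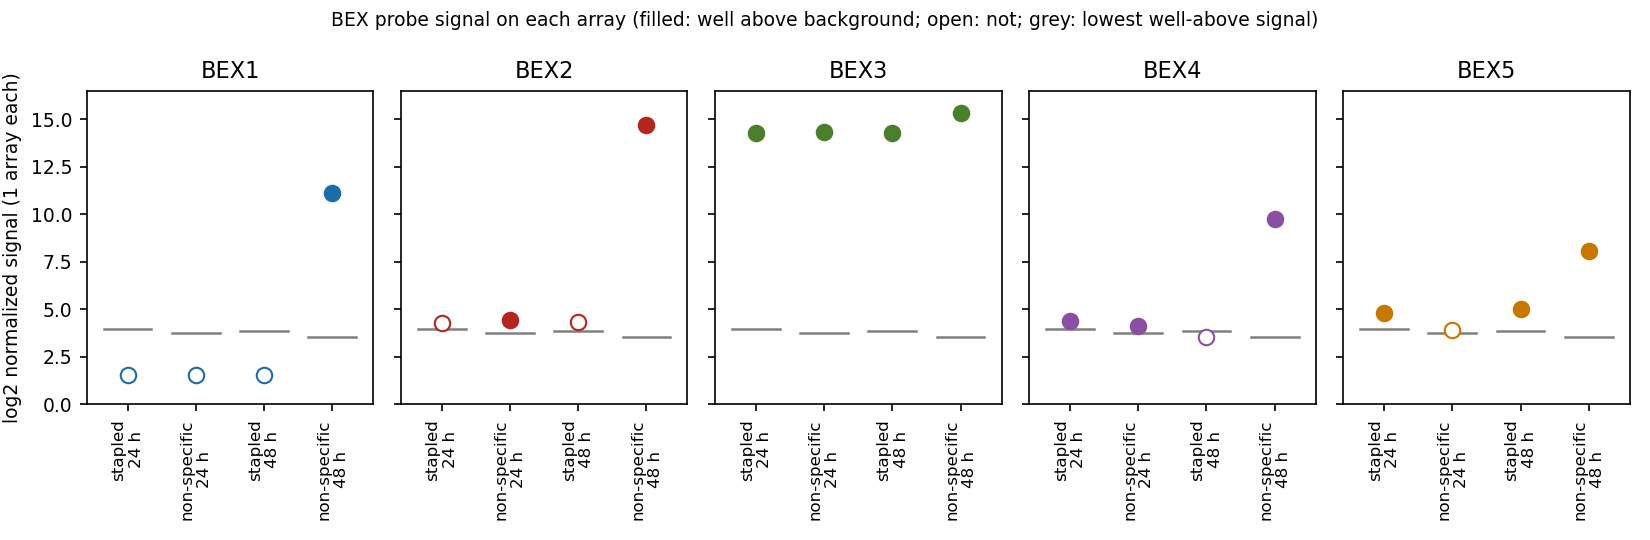
Log2 normalized signal of the single probe of each BEX gene on the 4 arrays. Filled points were well above background, open points were not, and the grey lines give the lowest well-above-background signal of each array (3.57 to 3.94). The last array is the highest in every panel, while only BEX3 is bright on all 4.

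BEX1, which binds NGFR and links neurotrophin signalling to the cell cycle, had log2 signals of 1.55 (stapled-peptide) and 1.56 (non-specific stapled-peptide) at 24 h, then 1.56 and 11.10 at 48 h. The signals of the other members follow in the same order. The first 3 values were not well above background, and the error that the software gives for them was about as large as the signal (100%). The 48 h difference was at least 7.22 (149-fold), taken against the lowest well-above-background signal of the dim array. Under normexp it was 5.19.

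BEX2, the member with the LMO2 partner, had log2 signals of 4.29 and 4.42 at 24 h and of 4.32 and 14.70 at 48 h. The scanner signals before normalization were 22.0, 24.2, 17.2 and 25034. Of the 3 low values, that with non-specific stapled-peptide at 24 h alone carried the well-above-background mark. Its bound at 48 h, at least 10.38 (1336-fold), or 8.25 under normexp, was the value by which the family was chosen.

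BEX4, the tubulin-binding member, had log2 signals of 4.41 and 4.11 at 24 h and of 3.56 and 9.76 at 48 h. The stapled-peptide 48 h value alone was not well above background. The 48 h difference was at least 5.87 (58.6-fold), or 3.68 under normexp. BEX4 thus stood near background on the same 3 arrays as BEX1 and BEX2.

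BEX5 had log2 signals of 4.78 and 3.90 at 24 h and of 5.03 and 8.09 at 48 h, and the 24 h value with non-specific stapled-peptide was not well above background. Its 48 h difference was measured on both sides and was 3.05 (8.31-fold), with an error of 0.25 from the software's error model. This is 7.16 times the standard deviation of the 24 h differences, and 96.8% of genes had a lower difference. Under normexp it was 1.77.

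BEX3, the NGFR death-domain partner, differed from its paralogs in that it was bright on every array. Its log2 signals were 14.25 and 14.34 at 24 h and 14.27 and 15.32 at 48 h, all well above background. The 48 h difference was 1.04 (2.06-fold) with a software error of 0.20, which is 2.45 times the standard deviation of the 24 h differences. With 79.6% of genes lower, it lay well inside the range of the array, and it was 0.82, under 2-fold, with scaling by the 75th percentile of every array. Cross-hybridisation between the probes of the members was not tested.

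At 24 h the peptides differed little for these genes. A difference could be given for 4 of the 5, since BEX1 was dim on both arrays, and 0 of 4 passed 2-fold, where 1.87% of 16228 genes did in either direction. BEX2 had 0.13 and BEX3 0.08, while BEX4 had −0.30 with a software error of 0.39. BEX5 had −0.88, a bound because its non-specific stapled-peptide signal was dim, and 1.32% of genes lay lower. That is −2.07 in units of the standard deviation of the 24 h differences, at signals close to background on both arrays.

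**Figure D3:**
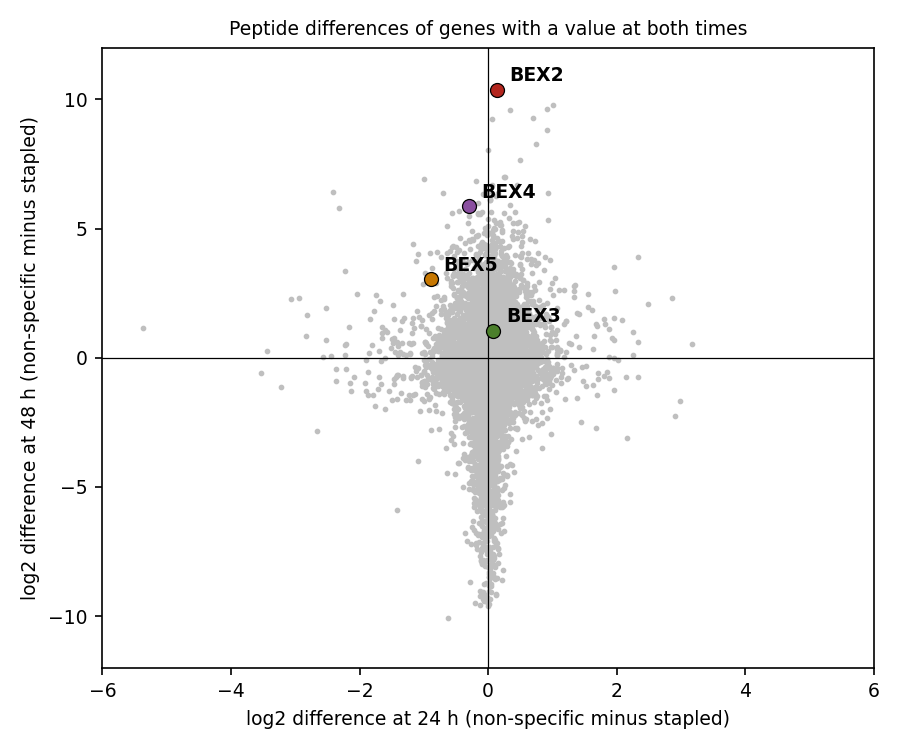
Log2 peptide difference at 24 h (horizontal) and 48 h (vertical) for the 15705 genes with a value at both times, in grey, with 4 BEX genes marked. BEX1 has no 24 h value and is not drawn. The 4 genes lie within 1 of 0 at 24 h and between 1.04 and 10.38 at 48 h.

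Time without the change of peptide gave the same picture from the other side. With stapled-peptide, the 48 h minus 24 h difference could be given for 3 members, and 0 of 3 passed 2-fold, where 2.06% of 16138 genes did. BEX3 had 0.02, BEX5 0.25 and BEX4 −0.52, the last a bound, and without normalization BEX3 and BEX5 were at −0.19 and −0.15. With non-specific stapled-peptide, 4 of 5 were past 2-fold higher at 48 h, where 21.3% of 17297 genes were. The differences were 10.28 (1245-fold) for BEX2, at least 7.32 (160-fold) for BEX1, 5.65 (50.2-fold) for BEX4 and at least 4.19 (18.3-fold) for BEX5, and BEX3 had 0.98 (1.97-fold). For BEX2 and BEX4 these were measured on both arrays and not bounds. This comparison and the peptide comparison at 48 h share the non-specific stapled-peptide 48 h array, so the values do not stand as separate observations of a rise.

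**Figure D4:**
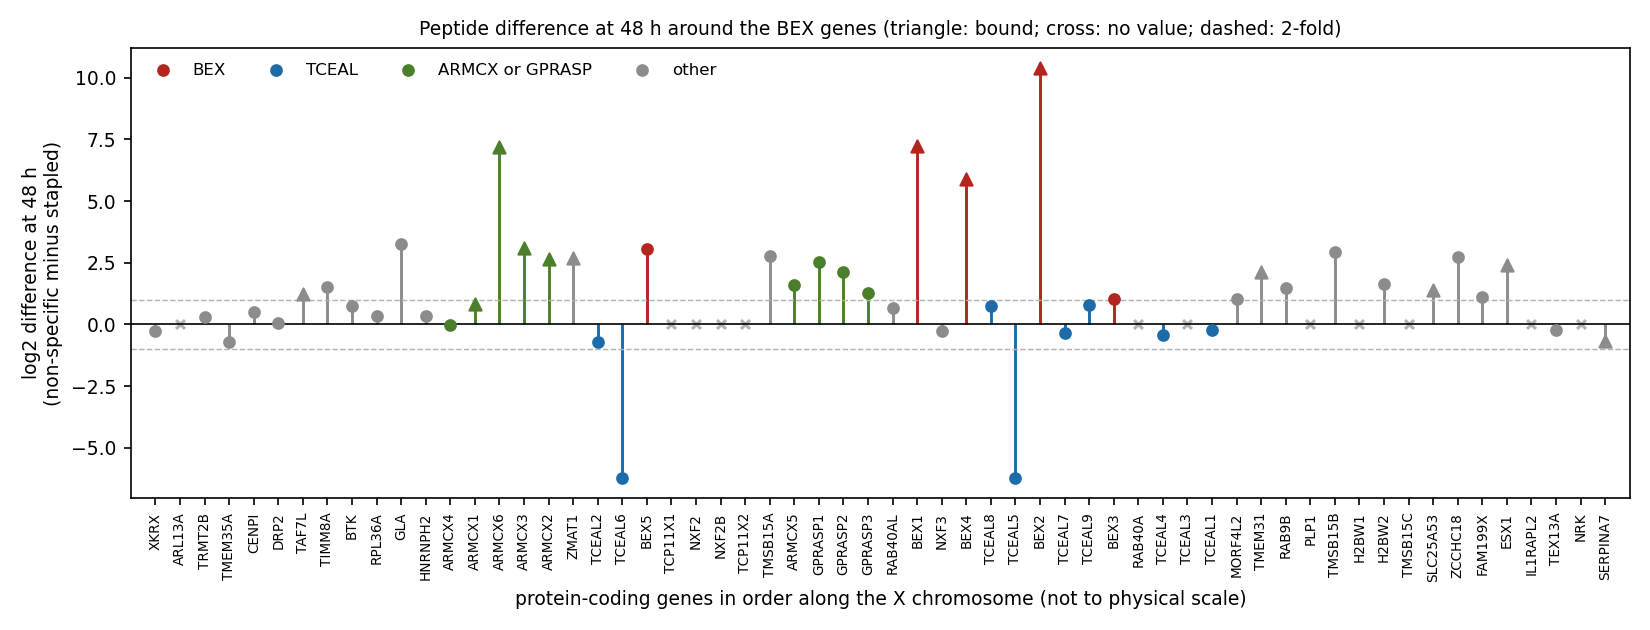
Log2 peptide difference at 48 h of 60 protein-coding genes in their order along the X chromosome, from 20 genes before the first BEX gene to 20 after the last, 1 position per gene. Triangles are bounds, crosses genes without a value and dashed lines 2-fold. BEX2 (10.38) stands next to TCEAL5 (−6.21), and BEX5 (3.05) next to TCEAL6 (−6.21).

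The BEX genes were next compared with their chromosomal neighbours. In RefSeq order they run BEX5, BEX1, BEX4, BEX2 and BEX3, with other genes between them. A stretch of 60 protein-coding genes around them had 53 on the array and 48 with a 48 h difference. Leaving out the BEX genes, 21 of 43 were past 2-fold higher and 2 lower, against 21.2% and 19.8% over all genes. On the whole X chromosome without the BEX genes, 209 of 622 (33.6%) were higher and 78 (12.5%) lower, with a median of 0.39.

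The TCEAL genes, the closest relatives, moved differently from the BEX genes that stand between them. Of 9 listed, 8 were on the array, 0 were past 2-fold higher and 2 lower (21.2% and 19.8% over all genes), and their median difference was −0.37. TCEAL5 had log2 signals of 11.78 and 11.88 at 24 h and of 11.97 and 5.75 at 48 h, a difference of −6.21. TCEAL6 had 12.57, 12.80, 12.80 and 6.59 in the same order, also a difference of −6.21, and its other probe gave −6.04. Both were thus lowest on the array where BEX1, BEX2 and BEX4 were highest. These genes are close copies of each other, and of TCEAL2 and TCEAL3, so their probes may share transcripts. The remaining 6 lay between −0.73 and 0.81. Windows of both TCEAL5 and TCEAL6 hold CACGTG, as those of BEX1, BEX2 and BEX4 do. So do windows of BEX3 (2.06-fold higher) and of TCEAL1, TCEAL2, TCEAL4 and TCEAL8, which stayed within 2-fold. The part of these letters in the signals was not tested.

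Of 29 further genes listed from the same region, 26 were on the array and 24 had a 48 h difference. 16 were past 2-fold higher and 0 lower, against 21.2% and 19.8% over all genes, and the median was 1.48. Of the 24 values, 7 were bounds. Under normexp 11 of 24 were past 2-fold higher and 0 lower, with a median of 0.93. On the X chromosome without the BEX genes, 152 of 620 were then higher and 47 lower. ARMCX6, of a family with armadillo repeats, had at least 7.19, though its other probe gave 3.41. Other ARMCX members were ARMCX3 (at least 3.08), ARMCX2 (at least 2.63) and ARMCX5 (1.59). The GPRASP genes, which encode sorting proteins of G protein-coupled receptors, gave 2.54 for GPRASP1, 2.14 for GPRASP2 and 1.26 for GPRASP3. GLA, the lysosomal galactosidase, had 3.24, and the thymosins TMSB15B and TMSB15A had 2.92 and 2.77. The others past 2-fold were ZMAT1 (at least 2.70), TMEM31 (at least 2.13), TIMM8A (1.51, other probe 0.22), RAB9B (1.46, other probe 0.27), TAF7L (at least 1.24) and MORF4L2 (1.03). The remaining 8 had values within 2-fold, though that of ARMCX1 was a bound (at least 0.84). Other probes of ARMCX4 and CENPI gave up to 1.73 and 1.81. Of the genes listed from this region, ARMCX6 alone came near the bound of BEX1, and none came near that of BEX2.

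Genes whose signal over the 4 arrays was most like that of each member were sought among genes well above background on the same arrays, by the root mean square difference of centred log2 signals. For BEX1 they were ARMCX6 (0.012), NEFL (0.019) and LONRF2 (0.028) among 1107 genes. For BEX3 they were TRA2A (0.0036), SCLT1 (0.010) and VARS2 (0.012) among 14041. For BEX4 the nearest of 178 were LOC100507412 (0.16), SMO (0.46) and HOXD10 (0.49), and for BEX5 the nearest of 75 were GUCY1A1 (0.22), CLDN10 (0.26) and LMO1 (0.31). BEX2 had no close match among 171 genes, since DLL3 (2.12), SLC30A3 (2.21), PKDCC, CHDH and PELI2 (2.36 each) were the nearest. Without the condition on the marks, which was dropped after these values were seen, the nearest to BEX2 among 17674 genes were UCHL1 (0.11), HOXB9 (0.35) and SNAR-F (0.43). With 4 arrays, one of them far from the rest, this likeness says mainly how high a gene stood on that array.

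Receptors, ligands and binding partners of the BEX proteins showed no common direction. Of 28 such genes, 25 had a 48 h difference, and 3 (12%) were past 2-fold higher and 5 (20%) lower. These shares lie below and near those over all genes (21.2% and 19.8%). The median difference of the list was −0.25 (0.05 without normalization between arrays). NGFR, the receptor bound by BEX1 and BEX3, had log2 signals of 5.08, 4.60, 4.55 and 4.59 and a 48 h difference of 0.04. LMO2, the partner of BEX2, had −0.61. NHLH2, the neuronal basic helix-loop-helix factor of the BEX2 complex, had the largest rise of the list, with 4.58, 4.35, 5.03 and 9.61 and a difference of 4.58. SMARCB1, a chromatin remodelling subunit, and PLK1, a mitotic kinase, were higher by 1.36 and 1.30. Their other probes gave 1.21 and 0.88, the latter under 2-fold. Among genes not counted as past 2-fold, other probes gave 1.11 for TRAF2 and −1.98 for NTRK2. The largest falls were BDNF (−2.80, a bound), TAL1 (−1.62), ARHGDIA (−1.49) and NTF4 (−1.40, a bound). In RNA, BEX2 and NHLH2 were thus high on the last array, while LMO2 stayed within 2-fold. The complex of their proteins was not measured.

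BEX promoters are known to be methylated in several tumours, so genes of DNA methylation and repression were read too. Of 18, 17 were on the array and 16 had a 48 h difference, 7 (43.8%) past 2-fold higher and 2 (12.5%) lower, against 21.2% and 19.8% over all genes, with a median of 0.61. TET1, which oxidises methylated cytosine, rose most, with 6.16 and 6.70 at 24 h and 6.64 and 11.55 at 48 h, a difference of 4.91. DNMT3B (2.61) and DNMT1 (2.20), the de novo and the maintenance methyltransferases, and UHRF1 (2.0), which recruits the latter, were higher as well. REST, the repressor of neuronal genes, had 7.84, 7.80, 7.87 and 6.39 and a difference of −1.48. MBD2 had −1.56, though its other probe gave 0.48. DNMT3A (0.55, lowest probe −1.13) and TET2 (0.61, lowest probe −0.90) did not pass 2-fold, and DNMT3L was dim on both arrays. The part of these genes in the BEX signals was not tested.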

How the data were processed

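RNA of 4 MCF-10A cultures was measured on 4 arrays, 1 per peptide and time, so the number of arrays limits the precision. The authors deposited spot intensities extracted from each scan, background-subtracted and not normalized between arrays. Other deposited columns are the software's marks for outliers, saturation and signal well above background. Per the file headers Feature Extraction version 10.7.1.1 was used, whereas the submitters' processing notes name 9.5. Control and outlier-marked spots were dropped, log2 signals averaged per probe (50590 probes) and quantile-normalized over the 4 arrays, as the methods of the study state, with a lowest signal of 1.0.

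RefSeq accessions named 28168 probes (55.7%), and a gene was read at its probe with the highest mean. A probe dim on 1 array of a pair was raised there to the lowest well-above-background signal unless its own signal was higher, which gives a bound, and a probe dim on both gave no fold. Calls past 2-fold are descriptions. Members and lists were chosen with earlier results of these data known. Genes named are the BEX genes, all TCEAL and Xq22 genes past 2-fold at 48 h, up to 4 per direction of other lists, NGFR, LMO2 and REST, and the nearest genes by likeness (5 for BEX2, 3 for the others). The array design was built on an older genome release, so gene positions are given as order and coordinates for RefSeq promoter windows alone. Windows were aligned with Biopython 1.88, with gaps at the ends left unpenalised. Identity was counted over the columns in which both windows overlap.

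Settings tried instead were the 75th percentile as the scale of each array, no normalization, normexp background correction (offset 50), no bound, probes well above background on both arrays, outlier-marked spots kept, saturated spots left out, the combined table of the authors, the mean of all probes of a gene, and thresholds of 1.5-fold, 4-fold and 100-fold. Normexp came from limma 3.58.1 (R 4.3.3). All else ran in Python 3.11.15, with pandas 2.3.3 and numpy 2.4.6 for the values and matplotlib 3.10.9 for the figures. The steps were tested on simulated data.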

Additional observations from a re-analysis of the deposited data

Results flagged for a closer look

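BEX4 and BEX5 had peptide differences of opposite sign at the 2 times, −0.30 and −0.88 at 24 h against at least 5.87 and 3.05 at 48 h. The difference between times was not tested, and the 24 h signals lay close to background.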

How the results depend on the processing

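No paired analysis was possible because each peptide and time has 1 array, and no array could be left out. When a probe had to be well above background on each array of a pair, fewer genes had a value. Of those, 2 of 2 BEX genes passed 2-fold at 48 h, 2 of 3 with time under non-specific stapled-peptide, and 10 of 17 Xq22 neighbours. At 100-fold the numbers were 2 and 2 for the BEX genes, 0 for TCEAL, 1 for Xq22, 0 for neurotrophin partners and 0 for silencing genes. At 4-fold they were 10 for Xq22, 2 for partners and 4 for silencing, and at 1.5-fold 1 BEX gene at 24 h (BEX5, lower), 5 TCEAL genes and 15 partners. The 75th percentile scale left 4 BEX genes past 2-fold at 48 h. Of the BEX differences, those with time under stapled-peptide changed sign for BEX3 without normalization (−0.19) and under normexp (−0.02) and for BEX5 without normalization (−0.15), and the median of the partners was 0.05 without normalization. Normexp gave smaller 48 h differences of 5.19 for BEX1, 8.25 for BEX2, 3.68 for BEX4 and 1.77 for BEX5, and −0.21 for BEX5 at 24 h. Without normalization 27.2% of all genes were past 2-fold higher and 16.3% lower. The median over all genes was then 0.26. Signals near background limit BEX1, BEX2, BEX4 and BEX5 on 3 arrays.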
